A study of Mus musculus with 26 samples.

Results

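The genes of activins, inhibins and follistatins were followed in sorted mesenchyme of the fetal mouse reproductive tract. The set comprised 9 genes, found by symbol in both RNA-seq tables among 41442 gene rows each: the subunit genes Inha, Inhba and Inhbb, the follistatin genes Fst, Fstl3 and Fstl1, and the receptor genes Acvr1b, Acvr2a and Acvr2b. All 9 passed the low-count filter in both tables, so no member was left out of a test.

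Cells were sorted by a red fluorescent reporter at the Rosa locus (Rosa-Tomato). In the Gli1-CreER line the reporter is switched on by tamoxifen in cells that express Gli1, a transcription factor gene of the hedgehog pathway. In the other line Amhr2-Cre, active wherever the anti-Müllerian hormone receptor gene Amhr2 is or was on, switches it on. Dams received 1 mg of tamoxifen on E12.5 and again on E13.5 (days of embryonic development), so every group shares that exposure, and the Gli1+ cells are those marked at that time together with their descendants. The fetal table holds Gli1+ cells of the mesonephros, the tissue that carries the sex ducts, in 4 groups of 3 libraries: XX (female) and XY (male) embryos at E14.5 and at E16.5. The uterine table holds 3 libraries of Amhr2+ cells and 3 of Gli1+ cells from uterus labelled neonatal and E19.5, all female. No label ties a replicate to an animal, a litter or a pool, so the p-values measure the spread between libraries, which may be technical. In bulk RNA of this kind, fewer expressing cells and less RNA per cell cannot be told apart.

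Activins are dimers of beta subunits: Inhba encodes the subunit of activin A and Inhbb that of activin B. Inhibins pair a beta subunit with the alpha subunit encoded by Inha and oppose activins at the receptor. Activins bind the type II receptors encoded by Acvr2a and Acvr2b, which recruit the type I receptor encoded by Acvr1b, and the signal reaches the nucleus through Smad2 and Smad3. Follistatin (Fst) and the follistatin-like protein Fstl3 bind activins outside the cell and block them, whereas Fstl1 is a matrix glycoprotein that shares the follistatin domain. In the reproductive tract Inhba is known for its part in the coiling of the epididymis, the male duct that develops from the Wolffian duct.

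The main pattern of the set lay in the beta subunit genes, whose starts differ in sequence. Inhba lies on chromosome 13 (16011851 to 16031621, plus strand) and Inhbb on chromosome 1 (119415465 to 119422248, minus strand), both on mm10. The 250 bases before each RefSeq start (GRCm38.p6, the assembly called mm10) are shown 5′ to 3′ because these genes carry the largest changes, with matches to the motifs searched in capitals: TATAAA in Inhba and CCGCCC, the reverse complement of the GC box GGGCGG, in Inhbb.
Inhba, chr13:16011601-16011850, plus strand: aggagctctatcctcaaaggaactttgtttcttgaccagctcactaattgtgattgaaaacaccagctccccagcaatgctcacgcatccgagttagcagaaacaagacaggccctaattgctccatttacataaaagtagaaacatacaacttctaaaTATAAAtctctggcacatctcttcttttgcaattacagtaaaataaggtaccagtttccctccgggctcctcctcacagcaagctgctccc
Inhbb, chr1:119422249-119422498, minus strand: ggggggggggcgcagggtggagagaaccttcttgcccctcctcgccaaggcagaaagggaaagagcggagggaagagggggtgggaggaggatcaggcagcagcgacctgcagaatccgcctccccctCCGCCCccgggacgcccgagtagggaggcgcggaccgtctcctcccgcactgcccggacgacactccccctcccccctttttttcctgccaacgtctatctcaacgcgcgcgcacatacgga
The Inhba stretch had a GC content of 43.2% and the Inhbb stretch 68%. The Inhbb match began 122 bases before the start and the Inhba match 91 bases before it.

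**Figure D1:**
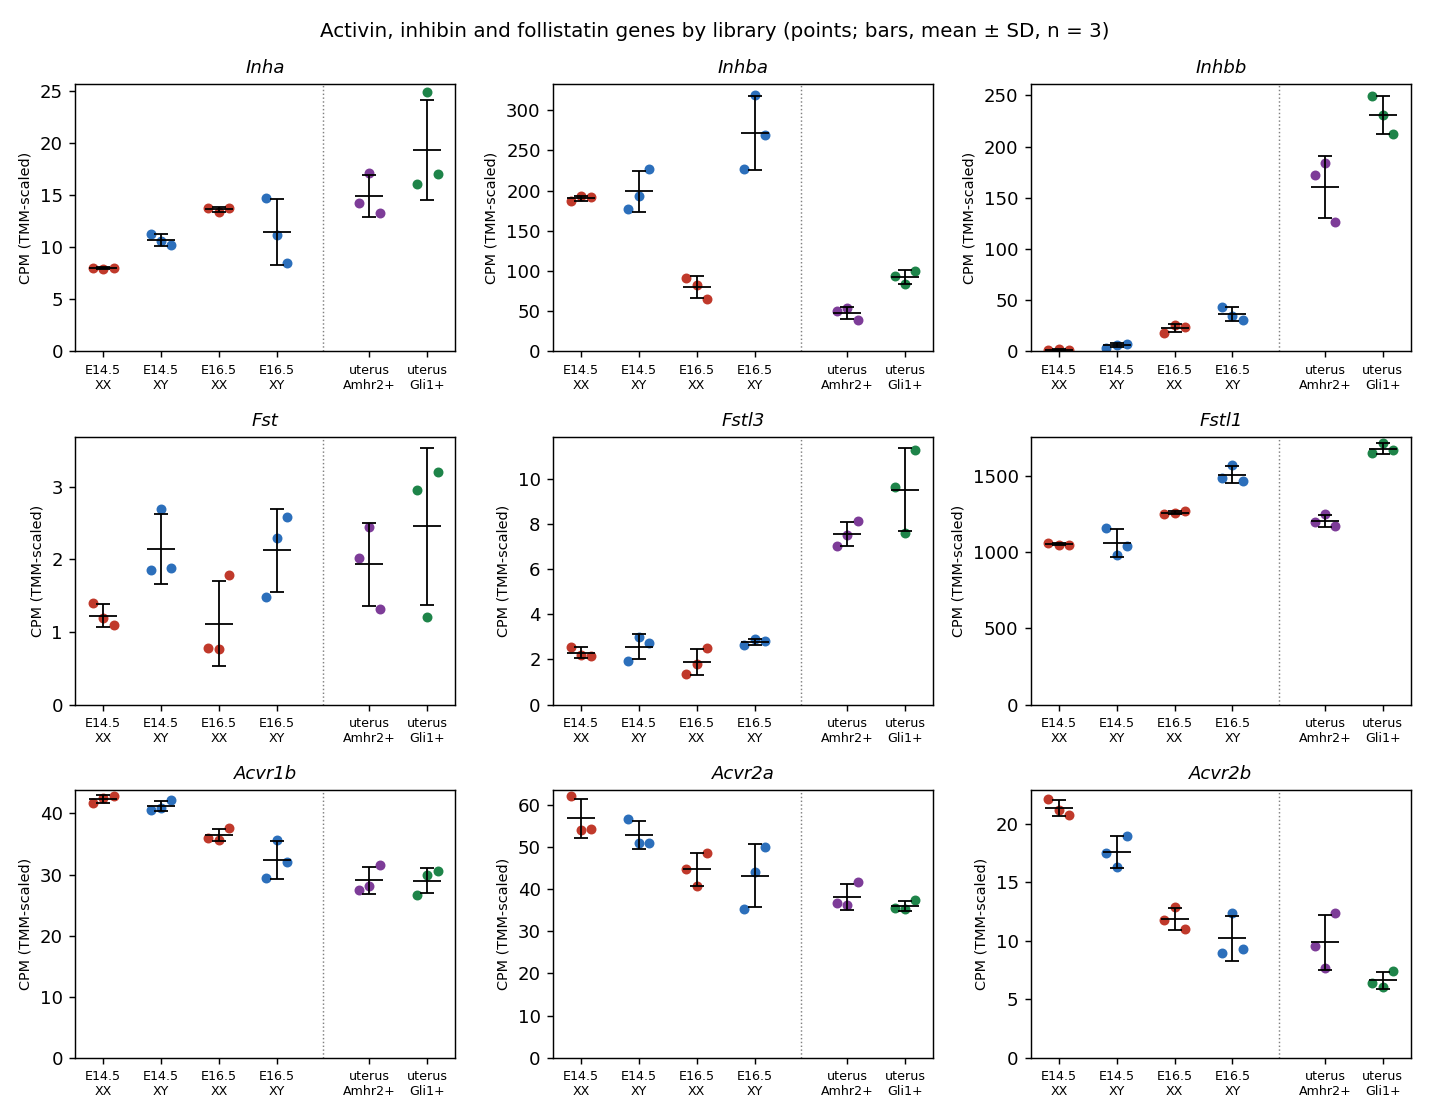
CPM (counts relative to the TMM-scaled library size) of the 9 genes in each library, with separate y axes that start at 0. Points are libraries, bars the mean ± SD of 3 libraries, and the dotted line parts the fetal from the uterine table, which were not compared. Inhba was lowest of the fetal groups in E16.5 XX and Inhbb was higher at E16.5 than at E14.5 in both sexes.

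Inhba was at like levels in both sexes at E14.5 and parted at E16.5. The plot of counts by library shows 187, 193 and 192 CPM in the E14.5 XX libraries and 177, 193 and 227 CPM in the E14.5 XY libraries. At E16.5 it measured 91.4, 82.9 and 64.7 CPM in XX and 227, 319 and 269 CPM in XY. Every E16.5 XX library lay below every other fetal library, whereas the E14.5 groups overlapped. At E16.5 Inhba was 3.41-fold lower in XX than in XY (log2 fold change -1.77, SE 0.141, edgeR adjusted p = 1.09e-06). At E14.5 the log2 fold change was -0.06, with a 95% interval of -0.36 to 0.24 (adjusted p = 0.87).

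With age, Inhba fell in XX by 1.26 on the log2 scale (SE 0.14, edgeR adjusted p = 1.87e-05), from 191 ± 3.46 to 79.7 ± 13.6 CPM (SD, n = 3). In XY it rose by 0.45 (SE 0.137, adjusted p = 0.0314), and the highest E14.5 and the lowest E16.5 library both stood at 227 CPM. That rise rested on single libraries: the adjusted p was 0.129 without E14.5 XY replicate 1, 0.0987 without E14.5 XY replicate 2, 0.11 without E16.5 XY replicate 2 and 0.0608 without E16.5 XY replicate 3. It was 0.0848 with no low-count filter. The interaction of sex and age, which tests the change in the sex difference directly, was -1.71 for Inhba (SE 0.196, adjusted p = 0.000114). The Inhba differences between the sexes at E16.5, with age in XX and in the interaction passed the threshold under every alternative run, including each library left out.

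Other measures differed between the sexes at E16.5 as well. Gli1 measured 50.7 ± 2.88 CPM in E16.5 XX and 208 ± 13.3 CPM in E16.5 XY. At E14.5 its means were 184 CPM in XX and 228 CPM in XY (log2 fold change -0.31, edgeR adjusted p = 0.0125). The summed level of 5 smooth muscle markers (Acta2, Myh11, Cnn1, Des and Actg2, all detected) was 462 to 563 CPM in E16.5 XX and 1710 to 2880 CPM in E16.5 XY, and at E14.5 it was 298 to 321 in XX and 598 to 882 in XY. With age the smooth muscle sum rose in both sexes, and Inhba fell in XX. At E16.5 both were lower in XX than in XY. The part of Gli1 and of the smooth muscle markers in the Inhba difference was not tested.

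Inhbb had the largest changes of the set. At E14.5 it was low in XX, at 1.67, 2.11 and 1.81 CPM (50, 53 and 50 counts), and measured 3.66, 6.43 and 7.45 CPM in XY. At E16.5 it reached 18.2, 26 and 23.5 CPM in XX and 43.6, 35 and 30.9 CPM in XY. At each age every XX library lay below every XY library, and at E16.5 every library of either sex lay above every library of E14.5.

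The rise of Inhbb with age was 3.6 on the log2 scale in XX (SE 0.258, 12.2-fold, edgeR adjusted p = 4.99e-07) and 2.6 in XY (SE 0.217, 6.06-fold, adjusted p = 2.8e-06). Inhbb was lower in XX than in XY by -1.7 at E14.5 (SE 0.272, 3.24-fold, adjusted p = 0.00295). These 3 results passed the threshold under every alternative run. At E16.5 the log2 fold change between the sexes was -0.69 (SE 0.198, 1.62-fold, adjusted p = 0.0214). That call was lost without E16.5 XX replicate 1 (adjusted p = 0.0748), without E16.5 XY replicate 1 (0.0604) and with no low-count filter (0.0822). Whether the sex difference of Inhbb changed with age was not settled: the interaction was 1.01 (SE 0.339, adjusted p = 0.0886). It passed without E14.5 XY replicate 1 (1.21, adjusted p = 0.00728), without E16.5 XY replicate 1 (1.16, adjusted p = 0.0383) and by DESeq2 (0.97, adjusted p = 0.0138). The smooth muscle sums given above for Inhba also differed between the sexes at both ages, and their part in the Inhbb difference was not tested.

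**Figure D2:**
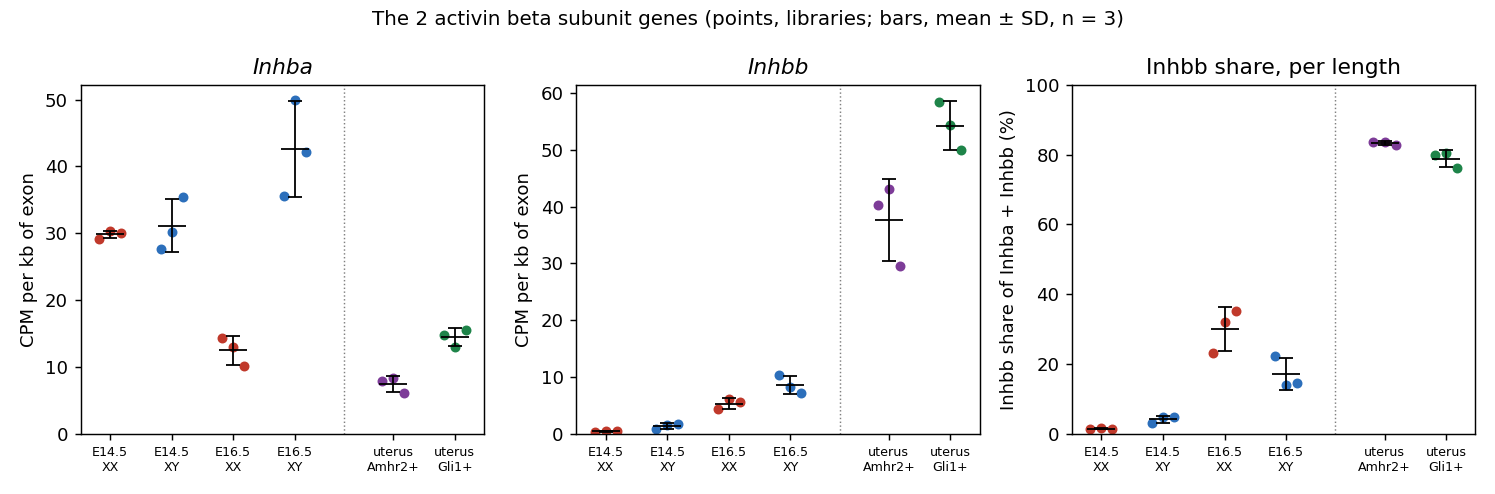
Level of Inhba and of Inhbb per kilobase of exon (CPM per kb, axes from 0) and the share of Inhbb in their sum, in percent, for each library. Points are libraries and bars the mean ± SD of 3; the share was 1.45% in E14.5 XX, 30.1% in E16.5 XX and 83.4% in uterine Amhr2+ cells, and the tables left and right of the dotted line were made with different kits.

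Because counts grow with transcript length, the beta subunit genes were compared per kilobase of annotated exon, within each library. Inhbb made up 1.45 ± 0.149% of the Inhba plus Inhbb level in E14.5 XX and 4.16 ± 0.997% in E14.5 XY (SD, n = 3). At E16.5 its share was 30.1 ± 6.34% in XX and 17.1 ± 4.59% in XY. In E16.5 the XX libraries gave 23.1, 32 and 35.3% and the XY libraries 22.4, 14.1 and 14.7%, so the groups did not overlap but came within 1 percentage point of each other. In the uterine libraries Inhbb was the larger of the pair, at 83.4 ± 0.542% in Amhr2+ and 78.9 ± 2.41% in Gli1+ cells. These shares are descriptions and were not tested, and the uterine values come from a stranded kit and a separate table.

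Inha, the alpha subunit gene, changed less. It measured 8.05, 7.88 and 8.04 CPM in E14.5 XX, 11.3, 10.6 and 10.2 CPM in E14.5 XY and 13.8, 13.4 and 13.8 CPM in E16.5 XX. The E16.5 XY libraries were spread over 14.8, 11.2 and 8.51 CPM and enclosed the E16.5 XX values. Inha rose with age in XX by 0.77 on the log2 scale (SE 0.15, edgeR adjusted p = 0.000881), a call kept under every alternative run.

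In XY the change of Inha with age was 0.1 (adjusted p = 0.665), with a 95% interval of -0.21 to 0.41, and it turned to -0.12 (0.488) without E16.5 XY replicate 1. Its interaction was 0.67 (SE 0.209, adjusted p = 0.0554). The interaction passed with a replicate block, which pairs same-numbered libraries within each age (0.7, adjusted p = 0.0191), without E16.5 XY replicate 1 (0.9, adjusted p = 0.00107), by DESeq2 (0.66, 0.0303) and with no low-count filter (0.66, 0.0283). The sex difference was -0.42 at E14.5 (adjusted p = 0.134) with no overlap of groups, and it passed without E16.5 XY replicate 1 (0.0249), without E16.5 XY replicate 3 (0.0338) and in a fit restricted to E14.5 (0.0208). At E16.5 it was 0.25 (adjusted p = 0.219), and 0.48 (adjusted p = 0.00456) without E16.5 XY replicate 1.

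Since Inha is best known from gonadal cells, markers of those cells were read beside it. The 5 Sertoli cell markers (Sox9, Amh, Dhh, Dmrt1 and Cst9) summed to 4.92 to 12.7 CPM in the fetal libraries, with Cst9 at 0 counts in 3 of the 4 groups. The 5 markers of steroid-making cells summed to 6.32 to 16.2 CPM, most of it Star, with Hsd3b1 at 0 in E16.5 XX and Cyp17a1 at 0 in E16.5 XY. Both sums were lower at E16.5 than at E14.5 in each sex. The 4 granulosa cell markers (Foxl2, Foxo1, Nr5a1 and Irx3) summed to 65.2 to 111 CPM. Among them Foxl2, a transcription factor gene of granulosa cells, was higher at E16.5, at 19.8 ± 0.486 and 34.3 ± 3.53 CPM in XX and 26.7 ± 5.61 and 52.3 ± 1.54 CPM in XY (SD, n = 3). Foxo1, which many cells express, measured 52.3 ± 2.73 and 38.6 ± 3.35 CPM in XX and 54.1 ± 1.35 and 55.5 ± 3.35 CPM in XY. The other granulosa markers were scarce. Nr5a1 had means of 0.473 and 0.091 CPM in XX and 0.423 and 0.495 CPM in XY. Those of Irx3 were 0.157 and 0.0416 CPM in XX and 0.0391 and 0.0431 CPM in XY. The part of gonadal cells in the level of Inha was not tested.

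The activin-binding follistatins were scarce. Fst, the main activin antagonist, gave 30 to 160 counts a library in the fetal table. It measured 1.4, 1.19 and 1.09 CPM in E14.5 XX and 1.85, 2.7 and 1.88 CPM in E14.5 XY. At E16.5 it measured 0.784, 0.763 and 1.79 CPM in XX and 1.48, 2.3 and 2.59 CPM in XY. The E16.5 groups overlapped through XX replicate 3, which held more Fst than XY replicate 1.

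Fst was called lower in XX at E16.5 (log2 fold change -0.94, SE 0.306, edgeR adjusted p = 0.0323). The call was lost without E16.5 XX replicate 1 (0.126) or 2 (0.135), without E16.5 XY replicate 2 (0.0814) or 3 (0.125), and in a fit restricted to E16.5 (0.0952). Without E16.5 XX replicate 3 the log2 fold change was -1.46 (0.00155). At E14.5 the value was -0.81 (SE 0.319, adjusted p = 0.177), with no overlap of groups, and it passed in a fit restricted to E14.5 (adjusted p = 0.0415). Age changes of Fst were -0.15 in XX, with a 95% interval of -0.86 to 0.57, and -0.01 in XY, with an interval of -0.63 to 0.6 (adjusted p = 0.757 and 0.981).

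Fstl3 measured 2.57, 2.19 and 2.14 CPM in E14.5 XX and 1.94, 3 and 2.74 CPM in E14.5 XY. At E16.5 it measured 1.37, 1.8 and 2.5 CPM in XX, all below the 2.62, 2.91 and 2.81 CPM of XY. The E16.5 sex difference was -0.56 (SE 0.212, edgeR adjusted p = 0.0635). With the replicate block it was -0.57 (adjusted p = 0.0399), and it passed without E16.5 XX replicate 3 (-0.81, adjusted p = 0.0122) and without E14.5 XY replicate 1 (0.0487).

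Per kilobase of exon, Fst and Fstl3 together stood at 0.04 ± 0.00511 of the Inhba plus Inhbb level in E14.5 XX and 0.0468 ± 0.00916 in E14.5 XY (SD, n = 3). At E16.5 the ratio was 0.059 ± 0.0274 in XX and 0.0314 ± 0.00298 in XY, and in the uterus 0.0801 ± 0.0185 in Amhr2+ and 0.0647 ± 0.0157 in Gli1+ cells. In all 18 RNA-seq libraries the activin subunit transcripts thus exceeded those of the activin-binding follistatins.

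Fstl1 was the most abundant member per kilobase in every group. It stood at 1060, 1050 and 1050 CPM in E14.5 XX and 1160, 983 and 1040 CPM in E14.5 XY. At E16.5 it stood at 1250, 1260 and 1270 CPM in XX and at 1490, 1570 and 1470 CPM in XY. It rose with age by 0.26 in XX (SE 0.0665, edgeR adjusted p = 0.00673) and by 0.51 in XY (SE 0.0666, adjusted p = 3.54e-05), and at E16.5 it was lower in XX by -0.26 (SE 0.0664, adjusted p = 0.0079). These calls were kept under every alternative run. The interaction of -0.25 did not pass (adjusted p = 0.107), though it did by DESeq2 (0.0396) and without E14.5 XY replicate 1 (0.0124).

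Of the 3 receptor genes, 3 fell with age in XX and 2 in XY, where 18.6% and 10.2% of all tested genes fell, and none passed the test between the sexes, where 6.28% of all tested genes did at E14.5 and 27.3% at E16.5. Acvr2b, a type II receptor gene, fell in both sexes. Its E14.5 libraries stood at 22.1, 21.2 and 20.8 CPM in XX and 17.5, 16.3 and 19 CPM in XY, and its E16.5 libraries at 11.8, 12.9 and 11 CPM in XX and 8.93, 12.4 and 9.32 CPM in XY. The change was -0.84 in XX (SE 0.115, edgeR adjusted p = 3.93e-05) and -0.79 in XY (SE 0.115, adjusted p = 0.000104), kept under every alternative run.

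Acvr1b, the type I receptor gene, went from 42.4 ± 0.661 to 36.4 ± 1.04 CPM in XX and from 41.2 ± 0.887 to 32.4 ± 3.07 CPM in XY (SD, n = 3). The log2 fold changes were -0.22 (edgeR adjusted p = 0.0233) and -0.35 (adjusted p = 0.00187). The XY call was kept under every alternative run. The XX call was lost without E14.5 XX replicates 1, 2 and 3 (0.0513, 0.0666 and 0.0716), without E16.5 XX replicates 1 and 2 (0.075 and 0.0736) and with no low-count filter (0.0781).

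Acvr2a, the other type II receptor gene, shares its locus with Orc4 on the opposite strand, and reads of the pair may not be separable. It fell in XX by 0.35 (edgeR adjusted p = 0.0216), from 56.7 ± 4.65 to 44.7 ± 3.82 CPM, a call lost without E14.5 XX replicate 1 (0.103), E16.5 XX replicate 1 (0.058) or E16.5 XX replicate 2 (0.0925). In XY its change was -0.29 (adjusted p = 0.0697), past the threshold without E16.5 XY replicate 3 (-0.4, 0.0144) and with library size as the only scaling (-0.35, 0.0137). Between the sexes the count of receptor genes called was 0 at either age by edgeR and by DESeq2. At an unadjusted edgeR p under 0.05 there was 1 at E14.5, Acvr2b, and 1 at E16.5, Acvr1b. Without E16.5 XY replicate 2 both Acvr1b (0.24, adjusted p = 0.0241) and Acvr2b (0.38, 0.0143) passed at E16.5, higher in XX.

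**Figure D3:**
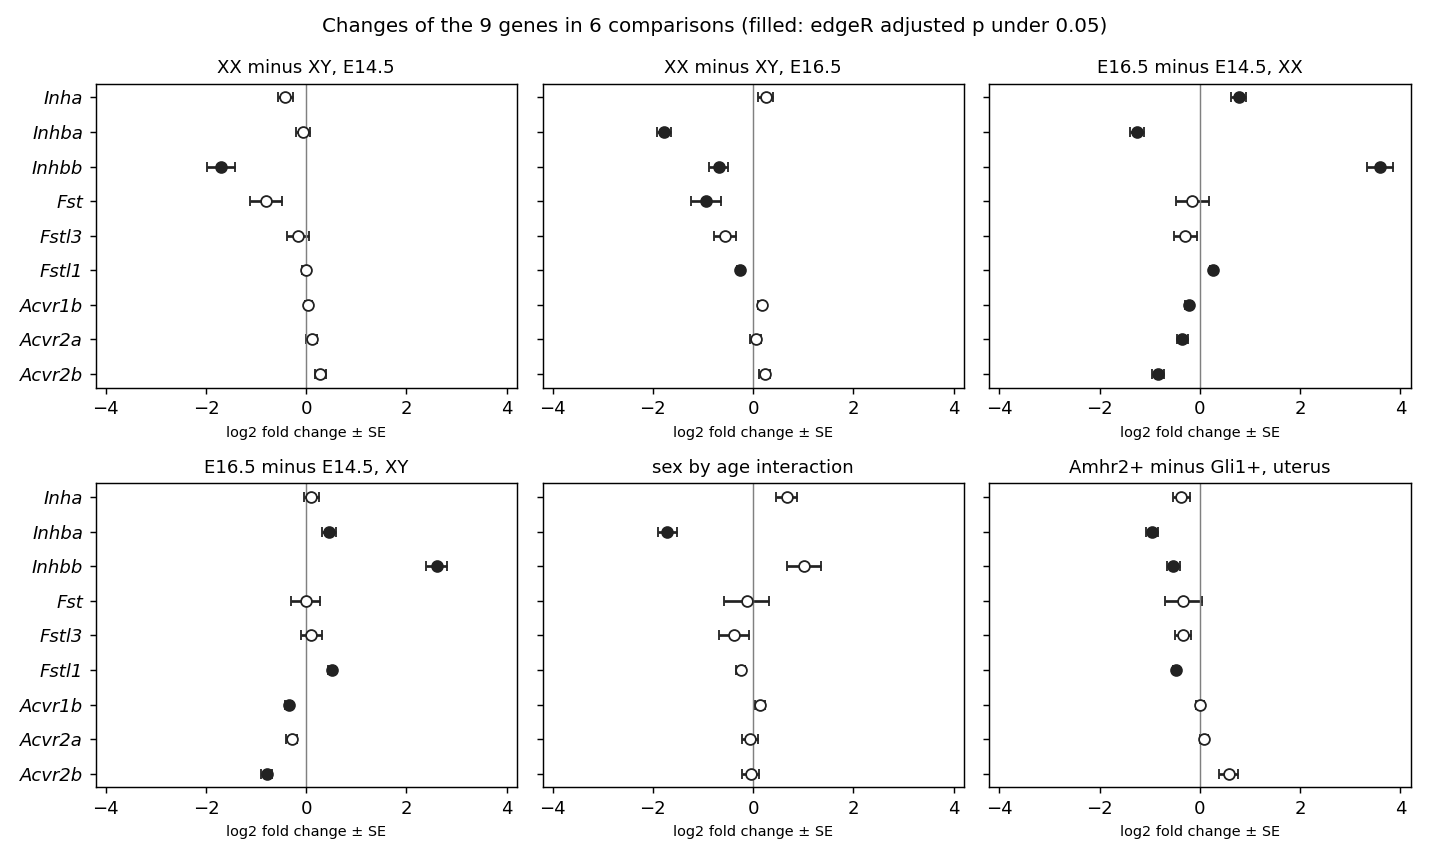
Log2 fold change ± SE of the 9 genes in 6 comparisons, with 0 marked by a line; filled symbols passed an edgeR adjusted p of 0.05 and open ones did not. Inhbb was the gene farthest above 0 in both age comparisons, and Inhba the only filled symbol in the interaction.

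Counted over the set, 1 of 9 genes differed between the sexes at E14.5, where 6.28% of all 17858 tested genes did, and 4 of 9 at E16.5, against 27.3%. The E14.5 count was 2 without E16.5 XY replicate 1 or 3 and 3 in a fit restricted to E14.5, and the E16.5 count was 2 without E16.5 XX replicate 1. The E16.5 count was 5 with the replicate block and without E14.5 XY replicate 1, E16.5 XX replicate 3 or E16.5 XY replicate 2. All genes called with every library were lower in XX, and 2 of the 5 called without E16.5 XY replicate 2, Acvr1b and Acvr2b, were higher. Of all tested genes 3.69% were lower and 2.59% higher in XX at E14.5, and 14.1% lower and 13.2% higher at E16.5. With age, 7 of 9 genes changed in XX (background 39.6%), 3 up (background 21%) and 4 down (18.6%), and 5 of 9 in XY (background 23.3%), 3 up (13.1%) and 2 down (10.2%). The interaction passed in 1 gene, Inhba, against 10% of tested genes (4.66% positive and 5.36% negative). The count was 3 without E14.5 XY replicate 1, 3 without E16.5 XY replicate 1, 2 with the replicate block or with no filter, and 4 by DESeq2. The median log2 fold change of the members was -0.262 between the sexes at E16.5, where that of all tested genes was 0.006.

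In the uterus the 2 labelled populations differed in 3 of 9 members, all lower in Amhr2+ cells, where 13.7% of 16195 tested genes were lower, 10.1% higher and 23.9% called in either direction. Inhba measured 50.3, 53.7 and 39.3 CPM in Amhr2+ and 94.3, 83.3 and 99.9 CPM in Gli1+ cells. Its log2 fold change was -0.95 (SE 0.12, 1.94-fold, edgeR adjusted p = 0.00109). Fstl1 measured 1200, 1250 and 1170 CPM in Amhr2+ and 1650, 1720 and 1670 CPM in Gli1+ cells (log2 fold change -0.48, SE 0.0566, edgeR adjusted p = 0.000701). Neither gene's groups overlapped, and both calls were kept under every alternative run.

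Inhbb was abundant in both uterine populations, at 172, 184 and 126 CPM in Amhr2+ and 249, 231 and 212 CPM in Gli1+ cells. Its log2 fold change of -0.53 (SE 0.137, edgeR adjusted p = 0.0284) was lost without Amhr2+ replicate 1 (0.0607), Gli1+ replicate 1 (0.0898) or Gli1+ replicate 2 (0.0776), and with no low-count filter (0.0655). Acvr2b went the other way, at 9.54, 7.71 and 12.4 CPM in Amhr2+ and 6.43, 6.04 and 7.45 CPM in Gli1+ cells, with no overlap. Its log2 fold change of 0.57 (SE 0.184) had an adjusted p of 0.0547, and it passed without Amhr2+ replicate 2 (0.0256), by DESeq2 (0.0194), with library size as the only scaling (0.0282) and with no low-count filter (0.0198).

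Inha ran from 13.3 to 17.2 CPM in Amhr2+ and from 16.1 to 24.9 CPM in Gli1+ cells (log2 fold change -0.37, edgeR adjusted p = 0.167). Fstl3 ran from 7.05 to 8.14 and from 7.62 to 11.3 CPM (-0.34, adjusted p = 0.161), and it passed without Gli1+ replicate 2 (-0.48, 0.0381). Fst ran from 1.32 to 2.45 and from 1.21 to 3.2 CPM (-0.33, adjusted p = 0.553). Acvr1b stood at 29 ± 2.28 and 29 ± 2.13 CPM (SD, n = 3), with a 95% interval for the log2 fold change of -0.2 to 0.2. For Acvr2a the interval was -0.1 to 0.25.

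Some sums of cell markers also parted the uterine populations. The 5 smooth muscle markers summed to 858 to 1380 CPM in Amhr2+ and 1750 to 1820 CPM in Gli1+ cells, and the 7 duct epithelium markers to 71 to 72.7 and 30.8 to 42.6 CPM. The 6 mesenchyme markers summed to 20600 to 22400 and 37400 to 41300 CPM. The sums of the 4 granulosa cell markers overlapped, at 129 to 192 and 126 to 137 CPM. Foxl2 was the most abundant of these in Amhr2+ cells, at 99.4 CPM. The part of these differences in the values of Inhba, Inhbb and Fstl1 was not tested.

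Ranked per kilobase of exon, the order of the members changed between groups. In E14.5 XX it ran from Fstl1 (215 ± 1.8 CPM per kb) to Inhba (29.8 ± 0.542), Acvr2a (9.98 ± 0.818), Acvr1b (9.59 ± 0.15), Acvr2b (5.44 ± 0.174), Inha (5.42 ± 0.0629), Fstl3 (0.94 ± 0.0972), Inhbb (0.438 ± 0.0528) and Fst (0.268 ± 0.0351; SD, n = 3 for each). Acvr2a and Acvr1b, and Acvr2b and Inha, differed by less than their spread. In E16.5 XY Inhbb (8.58 ± 1.52) stood next to Inha (7.8 ± 2.15), Acvr2a (7.58 ± 1.31) and Acvr1b (7.33 ± 0.696), which could not be ranked within their spread, below Inhba (42.5 ± 7.21). In uterine Gli1+ cells Inhbb (54.2 ± 4.33) was next below Fstl1 (342 ± 7.88). In uterine Amhr2+ cells Inhbb (37.7 ± 7.21) again came next below Fstl1, and Inhba (7.47 ± 1.18), Acvr2a (6.7 ± 0.527) and Acvr1b (6.57 ± 0.516) differed by less than their spread.

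**Figure D4:**
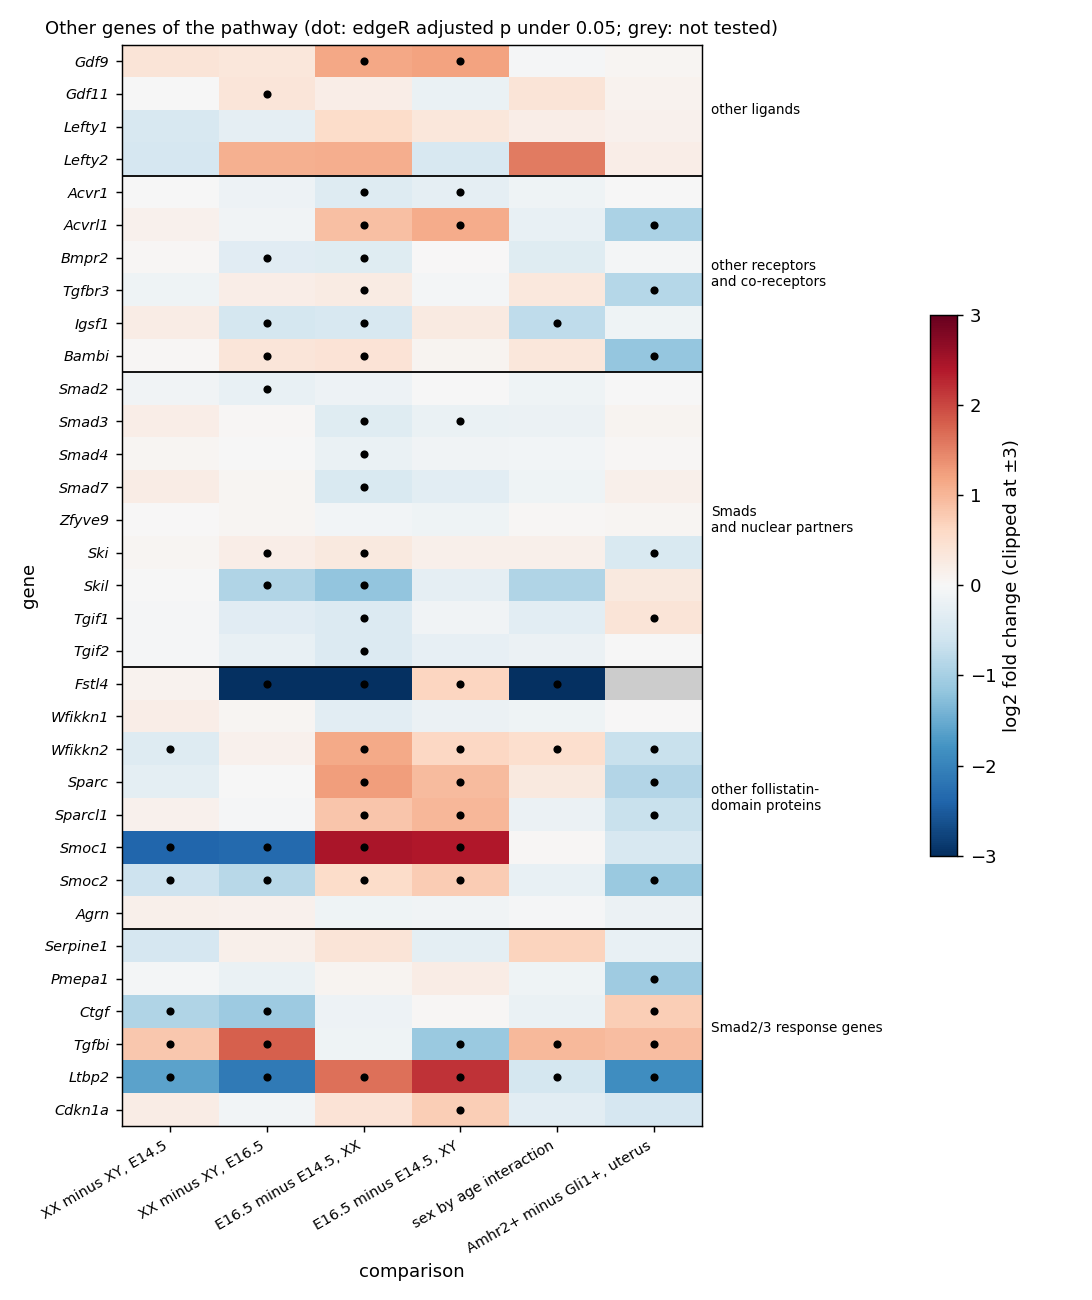
Log2 fold change, as colour, of the other tested genes of the pathway (rows, by role) in the 6 comparisons (columns), with the colour clipped at ±3. A dot marks an edgeR adjusted p under 0.05 and grey a gene not tested; Smoc1 and Ltbp2 were dotted in both sex and both age comparisons, and 3 of the Smads and nuclear partners were dotted between the sexes at E16.5.

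The rest of the pathway was read from a list of 45 genes in 5 roles, of which 33 were tested in the fetal and 32 in the uterine table. At E14.5, 1 of the 33 genes was higher in XX and 5 lower (2.59% and 3.69% of all tested genes). At E16.5, 4 were higher and 9 lower (13.2% and 14.1% of all), with a median of -0.03 beside 0.006 over all tested genes. With age, 11 rose and 10 fell in XX (21% and 18.6% of all), and 10 rose and 3 fell in XY (13.1% and 10.2% of all). In the uterus 3 of 32 were higher in Amhr2+ cells and 10 lower (10.1% and 13.7% of all). The fetal interaction passed in 5 genes (10% of all), in 8 without E16.5 XY replicate 1 and in 8 with the replicate block.

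Of the 10 other ligand genes, 4 were tested. Gdf11, whose product uses the same type II receptors, was the only abundant ligand among them, at 41 ± 2.58 CPM in E16.5 XX and 32 ± 1.9 CPM in E16.5 XY (SD, n = 3; log2 fold change 0.36, edgeR adjusted p = 0.0111). Gdf9 rose in both sexes but stayed at or under 1.43 CPM. No count fell on Gdf1, Gdf3 or Mstn in any fetal library, and Inhbc and Inhbe, the other beta subunit genes, were at 0 or under the floor of 3 counts a library in most. Gdf1 overlaps Cers1 and Upf1, and reads of these genes may not be separable, so its 0 need not mean absence.

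Among the 9 other receptor and co-receptor genes, 6 were tested. The betaglycan gene Tgfbr3, whose product helps inhibin to block activin, measured 154 ± 5.6 CPM in E14.5 XX, 168 ± 15.3 in E14.5 XY, 182 ± 7.13 in E16.5 XX and 160 ± 9.23 in E16.5 XY. It rose with age in XX (0.24, edgeR adjusted p = 0.0136), a call lost without E14.5 XX replicate 2 (0.0612) or E16.5 XX replicate 2 (0.0547). It was lower in uterine Amhr2+ than in Gli1+ cells (131 ± 9.89 against 238 ± 25.4 CPM, log2 fold change -0.85, edgeR adjusted p = 0.000427). Bambi, which encodes a decoy receptor, was lower there too (-1.17, adjusted p = 6.18e-05) and higher in XX at E16.5 (0.37, adjusted p = 0.00437). Tgfbr3 overlaps other genes of the table. The type I receptor gene Acvr1c lay at or under 0.259 CPM in every library, and no count fell on the co-receptor genes Tdgf1 and Cfc1.

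Of the 10 genes for Smads and their nuclear partners, 9 were tested. At E16.5, Ski was higher and Skil and Smad2 lower in XX, calls that were all lost in a fit restricted to E16.5 (adjusted p = 0.0557, 0.0691 and 0.0622). Smad2 was also lost without E16.5 XX replicate 1 (0.0625) or 2 (0.0745) and without E16.5 XY replicate 2 (0.0521) or 3 (0.0981), and Ski without E16.5 XX replicate 2 (0.109). In XX, 6 of the 9 fell with age (18.6% of all tested genes did), and 3 of the 9 without E14.5 XX replicate 3, while Ski rose (0.3, edgeR adjusted p = 0.000686). Skil, a Smad corepressor gene, fell most, by 1.18 (SE 0.22, adjusted p = 0.00229).

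Among the follistatin-domain genes, Smoc1, an extracellular calcium-binding protein gene that overlaps a microRNA gene, had group means in the same order as those of Inhbb. It measured 2.79 ± 0.683 CPM in E14.5 XX, 14.4 ± 2.98 in E14.5 XY, 15.3 ± 3.41 in E16.5 XX and 77.4 ± 4.51 in E16.5 XY (SD, n = 3). Unlike those of Inhbb, its E14.5 XY and E16.5 XX libraries overlapped (12 to 17.7 and 11.3 to 17.6 CPM), so these groups could not be ranked. Fstl4 had, like Inhba, its lowest group mean in E16.5 XX and its highest in E16.5 XY. It stood at 5.02 ± 0.426 CPM in E14.5 XX, 4.65 ± 0.368 in E14.5 XY, 0.504 ± 0.119 in E16.5 XX and 7.32 ± 2.95 in E16.5 XY. The XY groups overlapped, and the rise with age in XY was 0.64 (edgeR adjusted p = 0.0494). That call was lost in 10 of the 12 fits with a library left out. The interaction of Fstl4 was -3.96 (SE 0.372, edgeR adjusted p = 6.55e-06). Sparc, a matrix protein gene, rose with age by 1.26 in XX and 0.96 in XY (adjusted p = 5.2e-08 and 1.24e-06).

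The genes known to respond to Smad2 and Smad3 did not move together. Of 6 tested, Ltbp2 and Ctgf were lower and Tgfbi higher in XX at both ages. Ltbp2, which encodes a latent TGF-beta binding protein family member, measured 9.13 ± 0.775 CPM in E16.5 XX and 39.6 ± 3.05 in E16.5 XY (SD, n = 3; log2 fold change -2.12, edgeR adjusted p = 1.55e-10). Tgfbi measured 890 ± 64.9 and 257 ± 46.6 CPM (1.79, adjusted p = 3.51e-08). The Ctgf call at E14.5 (-0.9, adjusted p = 0.0163) was lost without any of the E14.5 XX replicates 1, 2 and 3 (0.0681, 0.0663 and 0.066), without E14.5 XY replicates 2 and 3 (0.069 and 0.0667), with no low-count filter (0.0661) and with the replicate block (0.126). In the uterus, Tgfbi was higher in Amhr2+ cells (0.93, adjusted p = 0.00022), and Ltbp2 and Pmepa1 lower (-1.87 and -1.06, adjusted p = 0.00484 and 2.75e-05). Ctgf was also called higher there (0.73, adjusted p = 0.0419). That call was lost in 4 of the 6 fits with a library left out, with no low-count filter (0.161) and with the replicate block (0.114). These genes respond to other signals as well.

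Outside the pathway, genes were sought whose log2 CPM most resembled that of a member over the 12 fetal libraries, among 9989 genes with a mean of at least 10 CPM. These libraries fall into 4 groups of 3 that share age and sex, so the coefficients mostly restate the group pattern and are given as descriptions. Pearson's r with Inhba was 0.982 for the clone-named transcript RP24-366J14.1 on chromosome 15, 0.981 for Pdgfra, a growth factor receptor gene of mesenchyme, and 0.977 for Mycl. Over the 6 uterine libraries the same genes had r of 0.86, -0.423 and 0.4. For Inhbb they were Prkcdbp (0.987), Tnnt1 (0.984) and Lrrc75b (0.984), with 0.957, 0.892 and 0.832 in the uterus. For Inha they were Tmem147 (0.954), Cdk5 (0.95) and Glt8d1 (0.94), with 0.497, 0.325 and -0.027 in the uterus. For Fst they were Ppp2ca (0.945), Rala (0.944) and Cdk7 (0.94), with 0.579, 0.543 and -0.123 in the uterus. Ranking by Spearman's coefficient kept 2 of these 3 genes for Inha, 1 for Inhba, 1 for Fst and 0 for Inhbb.

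**Figure D5:**
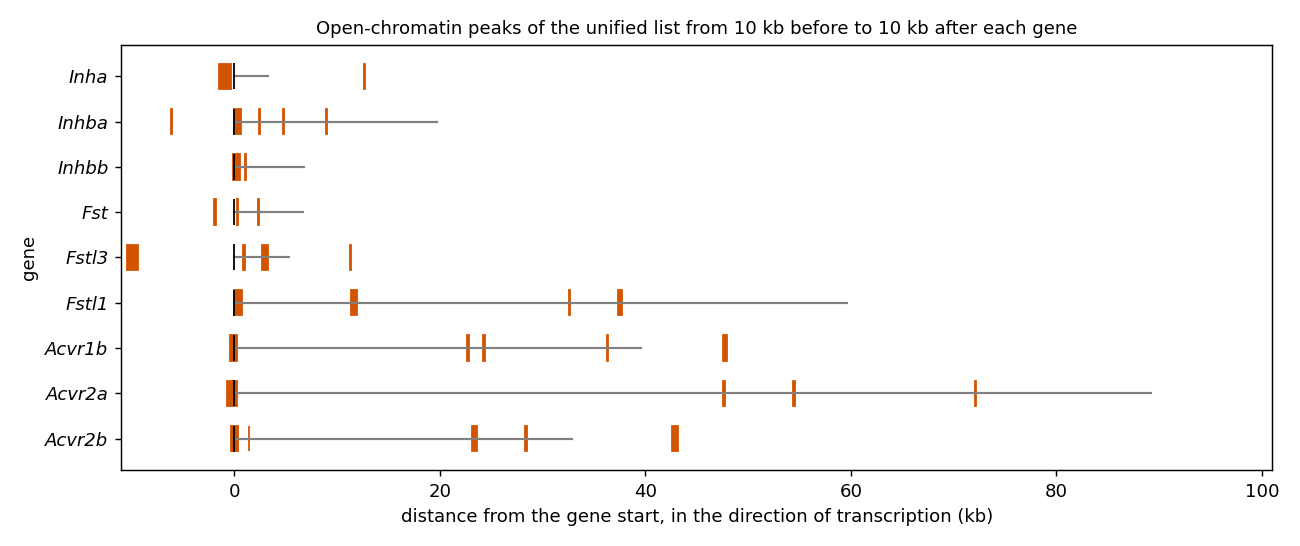
Peaks of accessible chromatin around the 9 genes, as distance from the gene start in kb along the direction of transcription. Grey lines are the genes, black ticks their starts and orange blocks peaks drawn to width; Inhba has 4 peaks within the gene and Inha has none.

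Accessible chromatin was read from the deposited list of 71040 ATAC-seq peaks, which pools all 8 ATAC-seq samples of fetal Gli1+ cells and gives no height, so that groups could not be compared. RefSeq starts were found for 8 of the 9 members; Fst was not among them. All 8 had a peak within 1000 bases of a start, against 50.7% of 27025 genes with a start in that table. In 6 of 8 a peak overlapped the window from 250 bases before to 50 after the start, against 44.6%. No filter on expression was applied to that background, and all members are expressed here.

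The place of the peak differed among members. At Inhbb a peak of 662 bases (chr1:119421692-119422353) covered the start, and at Acvr1b, Acvr2a, Acvr2b and Fstl1 peaks of 632 to 965 bases did so as well. At Inhba a peak of 637 bases (chr13:16011871-16012507) began just inside the gene and overlapped the window around the start by 30 bases. A further 3 narrow peaks of 61 to 74 bases followed in the gene. Inha had no peak within its 3.3 kb, and its nearest peak, of 1126 bases, was centred 914 bases before the start given with the counts. The RefSeq start of Inha, used for the windows, lies 532 bases downstream of that start. The 2 peaks inside Fst were 134 and 152 bases wide, and its start lay in neither.

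Motifs were searched on both strands of the same windows of 300 bases. The GC box (GGGCGG) was in the windows of 6 members (Inhbb, Fstl1, Fstl3, Acvr1b, Acvr2a and Acvr2b) and in 35.7% of all 32851 windows. TATAAA was in those of Inhba and Fstl3 (13.6% of all), and CCAAT in that of Inha (37.4%). No member window held TGACGTCA (1.79% of all), TGANTCA (7.81%), GACCACCCA (0.253%), GTCTAGAC (0.213%) or CAAGGTCA (1.56%). In no member did matches to different motifs overlap.

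Library totals ran from 23382983 to 64602477 counts in the fetal and from 28709191 to 37541045 in the uterine table, so that 3 counts equal 0.0464 to 0.128 CPM. All 6 mesenchyme markers were tested and summed to 23600 to 43500 CPM in the fetal libraries. The sex-linked check genes parted XX from XY in every fetal library. The E14.5 XX libraries differed in blood: the 5 erythroid markers summed to 5.02 CPM in the lowest and 884 CPM in the highest. Of the member calls in comparisons with E14.5 XX, the age call of Acvr1b was lost without replicate 1, 2 or 3 of that group. That of Acvr2a was lost without replicate 1, and no other was lost without 1 of these libraries.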

How the data were processed

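RNA-seq counts per gene, in 1 column per library, are used as deposited by the authors. Per the submitters' processing notes, STAR 2.5 and featureCounts of Subread 1.5.0-p1 were among the tools and mm10 was the build. Per the labels' protocols the fetal kit was non-stranded and the uterine kit stranded; the use of strand in counting and the annotation are not given in the sources used here. The ATAC-seq file is a deposited list of peak positions (other unit: chromosome, start and end), with MACS2 2.1.1 among the tools per the submitters' processing notes.

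Each table was fitted by itself with edgeR 4.0.16 in R 4.3.3: filterByExpr by group, TMM, robust quasi-likelihood test, Benjamini-Hochberg adjustment over all genes tested, threshold 0.05. The fetal model held 4 group means over 12 libraries. SE is the log2 fold change divided by the root of F, and 95% intervals use the fit's degrees of freedom. CPM use the TMM-scaled library size; levels per kb use union exon lengths of GENCODE vM21 (GRCm38), matched by symbol, which need not be the exons the authors counted. Log2 CPM for correlations used a prior count of 2. Floors are 3 counts per library and cover counting error only. The fits were tested on simulated data.

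Named were all 9 members, a pathway list, marker lists and, for Inha, Inhba, Inhbb and Fst, the 3 genes of highest Pearson correlation. Members and lists were chosen with earlier results of these data known, and which pathway genes are described was chosen after their values were seen. Alternatives were DESeq2 1.42.0, its size factors in edgeR, library size alone, no filter, a replicate block, only the libraries compared, and each library left out. Same-numbered libraries' deviations from group means correlated at E16.5 between the sexes (r of 0.28, 0.11 and 0.4, each above 0.1). Unlike-numbered libraries there ran from -0.34 to 0.11, so 1 same-numbered pair did not stand out. Numbers were taken as pairs only in the block alternative, not in the main fits, and no label ties a number to a litter. Genes of the tables that overlap a member are Orc4 (Acvr2a, up to 3676 counts) and, at 25 counts or fewer, others at Inhba, Fst, Fstl3, Acvr1b and Acvr2b. Promoter windows are from RefSeq on GRCm38.p6.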

Additional observations from a re-analysis of the deposited data

Results flagged for a closer look

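The sex difference of Inhba was not the same at both ages by a direct test: the interaction of sex and age was -1.71 (log2; edgeR adjusted p = 0.000114). By edgeR in the model of all fetal libraries Inhba was the only one of the 9 genes to pass, and by DESeq2 4 did.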

How the results depend on the processing

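Of 900 values of the 9 genes under alternatives, 820 kept their direction and side of the threshold, 26 lost a call, 28 gained one and 26 turned direction; no called value turned. The number of members called moved as follows. For the sex difference at E14.5 it was 3 in a fit restricted to those 6 libraries and 1 to 2 with a library left out. At E16.5 it was 2 to 5 with a library left out. For the interaction it was 2 with no filter, 4 by DESeq2, 2 with the replicate block and 1 to 3 with a library left out. Same-numbered uterine libraries correlated at r of 0, 0.22 and 0.24, and unlike-numbered ones ran from -0.24 to 0.13. No label says whether these numbers are pairs. In the uterus the block gave 5. There it added Inha (-0.35, edgeR adjusted p = 0.031) and Acvr2b (0.55, adjusted p = 0.0143). In the fetal table the block changed the calls of Fstl3 at E16.5 and of the Inha interaction, both given in the report, and no other member's. At E14.5 same-numbered libraries correlated at 0.07, 0.05 and 0.05.

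The values that turned were all uncalled and near 0. Fstl1 at E14.5 was 0 with DESeq2 size factors, by DESeq2 and in a fit restricted to E14.5, and Fst with age in XY was 0.01 with no filter. The others turned with a library left out, and their ranges over the left-out libraries follow. Fstl1 and Inhba at E14.5 ran from -0.06 to 0.06 and from -0.14 to 0.04, and Acvr2a at E16.5 from -0.08 to 0.16. Fst with age in XX ran from -0.67 to 0.06. With age in XY, Fst ran from -0.18 to 0.19, Fstl3 from -0.05 to 0.22 and Inha from -0.12 to 0.3. In the interaction, Fst ran from -0.65 to 0.06, Acvr2a from -0.18 to 0.05 and Acvr2b from -0.13 to 0.11. In the uterus, Acvr1b ran from -0.06 to 0.05. The cause was not tested.

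Over all genes, calls between the sexes at E14.5 fell from 1121 to 578, 660 and 653 without E14.5 XX replicates 1, 2 and 3 and to 686 and 553 without E14.5 XY replicates 2 and 3. Interaction calls rose from 1790 to 2687 without E16.5 XY replicate 1. Uterine calls fell from 3866 to 1949 without Amhr2+ replicate 1 and to 2521 without Gli1+ replicate 1. Fst had 30 to 160 counts a fetal library, and the E16.5 XX libraries ranged from 0.763 to 1.79 CPM. What share of its error comes from depth was not tested.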
